A study of Mus musculus with 4 samples.

Results

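Genes of glutathione synthesis, of the Nrf2 response and of defence against ferroptosis were followed in kidneys of embryos whose dams ate an iron-deficient or a control diet. Genes were chosen by name, with earlier results of these data known. The set holds 10 genes (Nfe2l2, Nqo1, Slc7a11, Gclc, Gclm, Gss, Gsr, Txnrd1, Srxn1 and Gpx4), out of 18193 gene symbols on the array. They are measured by 22 probe sets, of 45037, namely all whose platform annotation gives exactly 1 symbol and that symbol is in the set. The test took in 19 of them, from 9 genes, while both probe sets of Slc7a11 and 1 of Srxn1 were too dim for it.

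Glutathione is the main small thiol of the cell. It is built from glutamate, cysteine and glycine, and peroxidases spend it on removing peroxides. The transcription factor Nrf2, encoded by Nfe2l2, is held down by Keap1 and, when freed by electrophiles or oxidants, binds antioxidant response elements in front of genes that make and recycle glutathione and thioredoxin. Ferroptosis is a form of cell death driven by iron-dependent peroxidation of membrane lipids, and the glutathione-dependent peroxidase Gpx4 is its best known brake. Iron is thus a hazard in this system, and the proximal tubule of the kidney is a site of high glutathione turnover.

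Female C57BL/6 mice, assigned to a diet at 8 weeks of age, ate an iron-deficient synthetic diet of about 2 to 6 ppm iron or an iron-sufficient diet of 220 ppm, for 3 weeks before gestation and on through mating with C57BL/6 males and pregnancy; elsewhere the labels give a longer interval before mating. Kidneys were taken at embryonic day 15 and pooled by 16, and 2 iron-deficient and 2 control pools were each hybridised to 1 Affymetrix Mouse Genome 430 2.0 array, on which a probe set is a group of short probes that report 1 transcript as 1 signal. All samples are labelled female. Whether the 2 pools of a diet hold separate litters is not stated, so p-values reflect how far these pools lie apart, which may be technical. All 10 tested markers of embryonic kidney (such as Six2, Wt1 and Foxd1) were above background in all 4 pools.

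The arrays were not alike. Across tested probe sets the log2 signals of iron-deficient pool 1 correlated with those of the other arrays at 0.883 to 0.913, against 0.978 between the control pools. The 5′ probe set for 18S ribosomal RNA, a control feature of the array, had a signal of 2144.5 in iron-deficient pool 1 and 243 in pool 2, against 291.9 and 289.4 in the control pools. The Y-linked Eif2s3y read 253.6 and 20.8 in the iron-deficient pools, against 594.5 and 600 in the control pools, although every sample is labelled female. Xist, the RNA of the inactive X, read 3427 and 1543 in the iron-deficient pools, against 926.6 and 167.8 in the control pools. The part of these differences between arrays in the results was not tested, and each result is given pool by pool. With iron-deficient pool 1 left out, the median difference of the set was -0.53, against -0.38 with all pools.

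In kidneys of the iron-deficient group, Gclm and Srxn1 signals lay well below those of the control group in both pools, those of Gss lay below with a wide spread, and those of Nfe2l2 itself lay close together. No tested member passed the test. Limma's adjusted p ranged from 0.852 to 0.936 over the 19 probe sets, and 0 of all 27022 probe sets tested passed at an adjusted p of 0.05 (percent called 0; smallest adjusted p = 0.289). At an unadjusted p under 0.05 by limma lay 3 member probe sets, all lower, while 2.81% of all probe sets tested were lower at that threshold. They were 1 of Gclm and 2 of Srxn1, and without either control pool 0 members were below that threshold. Those fits gave every probe set the same SE of 0.835, and the differences without control pool 1 and without control pool 2 were -1.26 and -1.02 for Gclm and -1.27 and -1.34 for Srxn1. With all pools 0 members were higher, where the background is 1.14% (3.96% in either direction). On the brightest probe sets, Gclm and Srxn1 were lower at that threshold, against 3.30% of all genes, and 0 were higher, against 1.26%. The difference was below 0 for 16 of the 19, against 58.4% of all probe sets tested. Both iron-deficient pools lay below both control pools for 10 of the 19 probe sets, against 25.0% of all tested, and above both for 0, against 11.8%. Counted by gene, on the brightest probe set of each, the pools were separated downwards for 4 of 9 genes (Gclc, Gclm, Gss and Srxn1), against 26.0% of 12997 genes, and upwards for 0, against 13.1%. The set was chosen with earlier results of these data known, and probe sets of a gene are not independent. These counts therefore describe the set and are not a test of it. The median log2 difference, iron-deficient minus control, was -0.38 over the 9 genes and -0.14 over all genes on the same footing. Median centring moved the median of all probe sets by more than any other scaling, to 0.09, against -0.10 as deposited, and with it the median of the 9 genes was -0.19. The split of all probe sets at an unadjusted p under 0.05, 309 higher and 760 lower as deposited, was then 581 higher and 479 lower, and 460 higher and 612 lower with quantile normalization. In these whole-kidney pools, fewer cells of a type and less RNA per cell cannot be told apart.

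Nrf2 acts through short elements in front of its target genes, and the sequences there were read for the set. The 250 bases before each annotated start, from RefSeq on GRCm38.p6, were searched on both strands for 2 short forms of the antioxidant response element, TGACNNNGC and TGANTCAGC, which share a site where the N of TGANTCAGC is C. Windows were matched for 8 of the 10 genes, all but Gclc and Gsr, giving 13 windows because Gpx4 and Txnrd1 have several starts. A match was found in 4 windows, 1 each of Nfe2l2, Gclm, Txnrd1 and Srxn1, while 10.8% of 32536 distinct windows of all genes hold one. Gclm and Srxn1 are shown because they had the smallest p of the set, and the Txnrd1 start with a match because its probe sets disagreed. Capitals mark the match, which in Gclm reads TGACGGTGC and in Txnrd1 TGACAAAGC on the opposite strand, and in Srxn1 TGAGTCAGC on the printed strand.
Gclm, chr3:122245307-122245556, + strand: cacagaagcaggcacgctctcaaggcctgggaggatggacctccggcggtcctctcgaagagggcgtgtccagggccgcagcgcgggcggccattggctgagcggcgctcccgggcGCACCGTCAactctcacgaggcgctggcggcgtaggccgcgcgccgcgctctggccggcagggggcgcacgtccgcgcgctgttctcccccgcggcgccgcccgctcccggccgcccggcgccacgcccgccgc
Srxn1, chr2:152105274-152105523, + strand: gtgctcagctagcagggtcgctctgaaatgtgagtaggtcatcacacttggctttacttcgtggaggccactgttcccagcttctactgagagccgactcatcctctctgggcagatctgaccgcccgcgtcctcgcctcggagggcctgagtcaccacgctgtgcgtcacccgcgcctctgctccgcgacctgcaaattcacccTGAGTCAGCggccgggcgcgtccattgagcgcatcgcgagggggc
Txnrd1, chr10:82858956-82859205, + strand: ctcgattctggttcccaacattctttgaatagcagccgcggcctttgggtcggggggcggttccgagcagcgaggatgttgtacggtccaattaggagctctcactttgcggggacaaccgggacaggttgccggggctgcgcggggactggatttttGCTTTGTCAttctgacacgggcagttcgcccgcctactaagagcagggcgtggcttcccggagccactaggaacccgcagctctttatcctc
The leftmost printed base of the match lies 134, 45 and 92 bases before the start of Gclm, Srxn1 and Txnrd1, in that order. A match of these letters is a description of the sequence and does not show binding. Bases further from the start were not searched, so a window without a match does not show that a gene lacks an element.

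**Figure D1:**
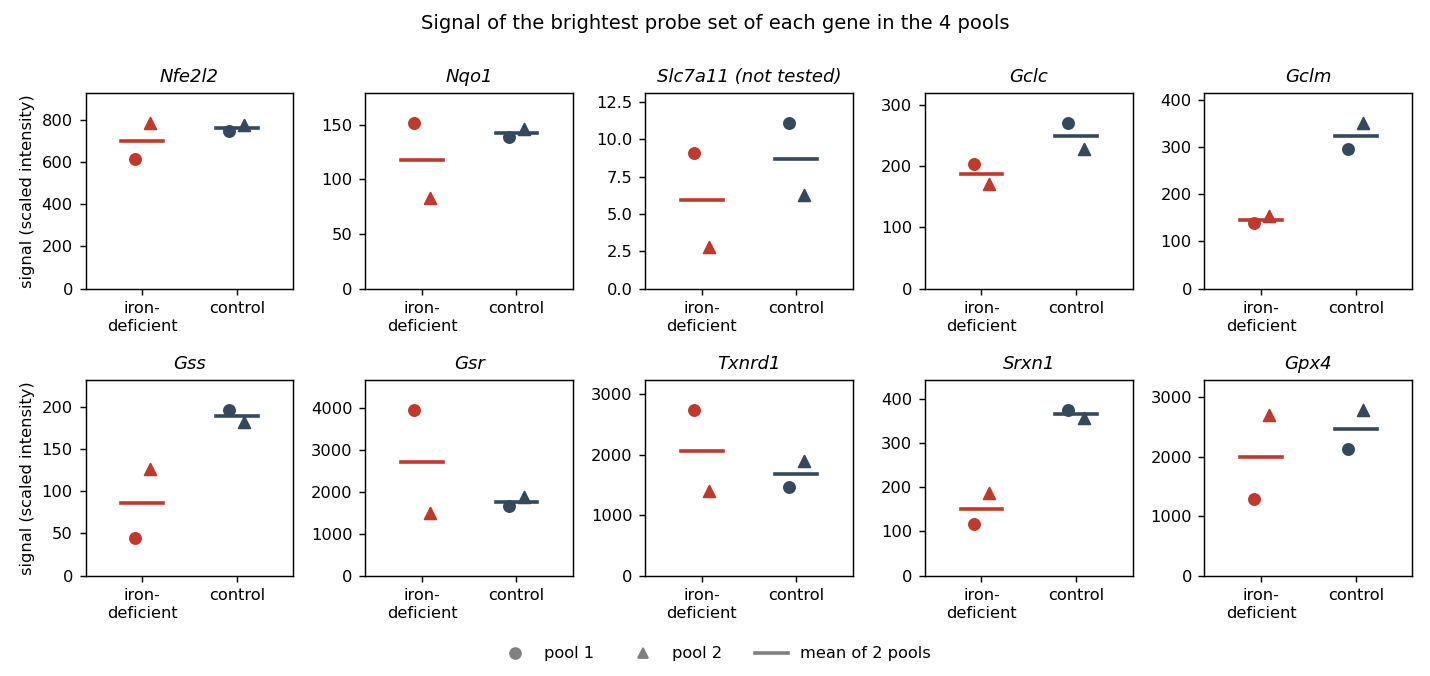
Signal (scaled intensity, each axis from 0) of the brightest probe set of each of the 10 genes in 2 iron-deficient and 2 control pools; circles are pool 1, triangles pool 2, and bars the mean of 2 pools. Gclm, Srxn1, Gss and Gclc have both iron-deficient pools below both control pools, while for Gsr and Txnrd1 the iron-deficient pools lie on either side of the control pools.

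Nfe2l2, which encodes Nrf2 itself, had signals of 612.2 and 785 in the iron-deficient pools, against 745.7 and 774.3 in the control pools. The pools overlapped, with iron-deficient pool 1 the lowest and iron-deficient pool 2 the highest of the 4. The log2 difference was -0.13 ± 0.33 (SE, n = 2 pools per diet; limma adjusted p = 0.918), with a 95% interval from -0.95 to 0.69, which holds differences of either sign. It was 0.064 with median centring and 0.047 without iron-deficient pool 1. A dimmer probe set, which read 21.1 and 23.6 in the iron-deficient pools and 25.9 and 23 in the control pools, had the same difference, -0.13 ± 0.32. Transcript level is only one way in which this factor is set, since Keap1 controls the protein. Nqo1, a quinone reductase widely used as a readout of Nrf2, had signals of 151.4 and 83.2 in the iron-deficient pools, against 138.6 and 145.7 in the control pools. Iron-deficient pool 2 alone was low, and pool 1 was slightly above both control pools. The difference was -0.34 ± 0.40 (SE; limma adjusted p = 0.855), and 0.091 without iron-deficient pool 2.

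Glutathione synthesis starts with the import of cystine. Slc7a11, the cystine carrier of the plasma membrane, was at the edge of detection. Its brighter probe set read 9.1 and 2.8 in the iron-deficient pools and 11.1 and 6.3 in the control pools, and was above background in control pool 1 only. Its dimmer probe set was above background in none of the 4 pools. No difference can be read from such signals, which show only that the probe sets were near the floor of the array in these kidneys.

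Gclc and Gclm form glutamate-cysteine ligase, the enzyme of the rate-limiting step, in which Gclc is the catalytic and Gclm the modifier subunit. Gclm had signals of 139.1 and 153.4 in the iron-deficient pools, against 296.5 and 350.5 in the control pools. The groups did not overlap, and the gap between them was larger than the spread within either. The log2 difference was -1.14 ± 0.32 (SE, n = 2 pools per diet), which is 0.453 of the control level, with limma's unadjusted p = 0.0136 and adjusted p = 0.852. Against the control mean, pool 1 differed by -1.21 and pool 2 by -1.07, so the difference was present in each. The other Gclm probe set read 180.5 and 102.4 in the iron-deficient pools, against 238.8 and 247.4 in the control pools. It was likewise separated, but iron-deficient pool 2 was the lower one there, and the difference was -0.84 ± 0.40 (limma adjusted p = 0.852).

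Gclc, the catalytic subunit, had signals of 203.4 and 171.7 in the iron-deficient pools, against 270.8 and 227.8 in the control pools. The pools were separated by a small margin, 203.4 against 227.8. The difference was -0.41 ± 0.33 (SE; limma adjusted p = 0.852), with a 95% interval from -1.23 to 0.41, and it was -0.21 both with quantile normalization and with median centring. The other Gclc probe set, whose pools overlapped, differed by -0.13 ± 0.32, but by 0.075 with quantile normalization and 0.066 with median centring. Whether the subunits differed from each other in their change was not tested.

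Gss, glutathione synthetase, adds glycine in the last step. Its brighter probe set read 45 and 126.6 in the iron-deficient pools, against 195.8 and 182.3 in the control pools. Both iron-deficient pools were low, and pool 1 much more so, with log2 differences from the control mean of -2.07 in pool 1 and -0.58 in pool 2. The difference of the diets was -1.32 ± 0.55 (SE; limma unadjusted p = 0.0555, adjusted p = 0.852). The other probe set read 46.9 and 144.8 in the iron-deficient pools, against 175.1 and 147.6 in the control pools, so iron-deficient pool 2 was hardly below control pool 2. On both probe sets iron-deficient pool 1, the array that stood apart, was much the lower of the iron-deficient pools.

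Gsr, glutathione reductase, returns oxidised glutathione to its reduced form. It had signals of 3948.9 and 1489.4 in the iron-deficient pools, against 1655.1 and 1872.2 in the control pools. Iron-deficient pool 1 was the highest and pool 2 the lowest of the 4. The difference was 0.46 ± 0.53 (SE; limma adjusted p = 0.855), and -0.24 without iron-deficient pool 1. The dimmer Gsr probe set showed the same order, with 85.2 and 27.7 in the iron-deficient pools and 39.6 and 46.1 in the control pools. A difference of Gsr between the diets was therefore not shown in either direction.

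**Figure D2:**
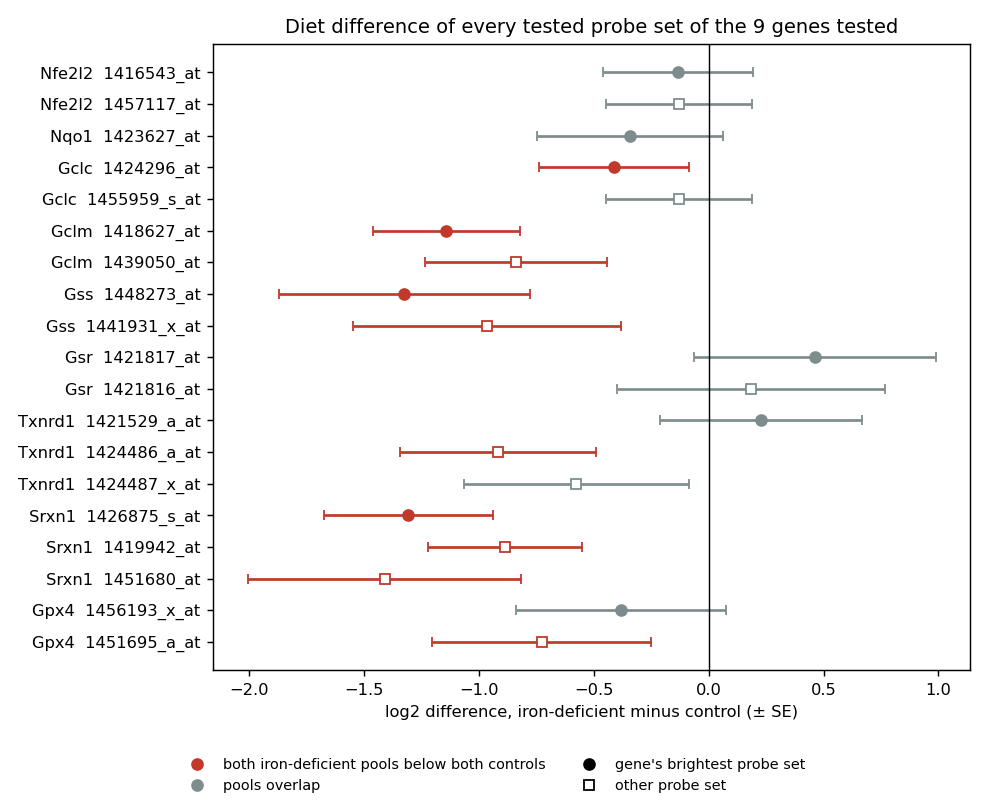
Diet difference on the log2 scale (iron-deficient minus control) with its standard error, for the 19 tested probe sets; filled circles are the brightest probe set of a gene, open squares its other probe sets, red where both iron-deficient pools lay below both control pools and grey where pools overlapped. The tested probe sets of Gclm, Gss and Srxn1 all lie left of 0, while the brightest probe set of Txnrd1, at 0.23, lies right of its other probe sets.

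The thioredoxin system works beside glutathione. Srxn1, sulfiredoxin, which repairs over-oxidised peroxiredoxins, had signals of 117.3 and 185.7 in the iron-deficient pools, against 374 and 356.5 in the control pools. The groups were far apart, and iron-deficient pool 1 was the lowest. The log2 difference was -1.31 ± 0.37 (SE, n = 2 pools per diet), which is 0.404 of the control level, with limma's unadjusted p = 0.014 and adjusted p = 0.852. Against the control mean, pool 1 differed by -1.64 and pool 2 by -0.98. The next brightest probe set read 116.5 and 153.7 in the iron-deficient pools, against 263.1 and 232.5 in the control pools (-0.89 ± 0.34). A further probe set read 21.4 and 67.7 in the iron-deficient pools, against 90.9 and 112.5 in the control pools (-1.41 ± 0.60, or -0.58 without iron-deficient pool 1). The remaining one was too dim to be tested, with 6.5 and 9.2 in the iron-deficient pools, neither above background, against 19.9 and 14.1 in the control pools. On group means it was at least 1.21-fold lower. That bound has no error and rests on signals near the floor. Control pool 2, at 14.1, lay under the background of iron-deficient pool 1, 14.4. All 4 probe sets of Srxn1 had both iron-deficient pools below both control pools. This was the one case in the set with more than 2 probe sets on the same side. However, probe sets of a gene can measure the same transcripts and are not independent.

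Txnrd1, thioredoxin reductase 1, a selenoprotein that keeps thioredoxin reduced, gave probe sets that disagreed. The brightest read 2738.8 and 1396.3 in the iron-deficient pools, against 1465.9 and 1900.8 in the control pools. Its iron-deficient pools lay on either side of the control pools, and the difference was 0.23 ± 0.44 (SE; limma adjusted p = 0.899), or -0.26 without iron-deficient pool 1. The next brightest read 164.8 and 95.1 in the iron-deficient pools, against 288.5 and 193.9 in the control pools, with a difference of -0.92 ± 0.43 (limma adjusted p = 0.852). The dimmest read 74.1 and 38.9 in the iron-deficient pools, against 107.6 and 59.5 in the control pools, and its pools overlapped (-0.58 ± 0.49). Iron-deficient pool 2 was below both control pools on all of these probe sets, and pool 1 on 1 of them only. No single direction can therefore be given for Txnrd1.

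Gpx4, the selenoprotein that reduces lipid hydroperoxides within membranes, had signals of 1298.1 and 2700.1 in the iron-deficient pools, against 2134.8 and 2786.5 in the control pools. Iron-deficient pool 1 was low and pool 2 lay between the control pools. The difference was -0.38 ± 0.46 (SE; limma adjusted p = 0.856), and 0.15 without iron-deficient pool 1. This probe set is of a type (suffix x) whose probes may also bind other transcripts. Within the set, the dimmer probe set of Gss and the dimmest of Txnrd1 are of that type too. The other Gpx4 probe set read 478 and 1096.9 in the iron-deficient pools, against 1153.7 and 1244.5 in the control pools. It was separated, by a small margin in pool 2, with a difference of -0.73 ± 0.48 (limma adjusted p = 0.852). In iron-deficient pool 2 the log2 difference from the control mean was 0.15 and -0.13 on these probe sets, so the low Gpx4 signals were those of pool 1.

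**Figure D3:**
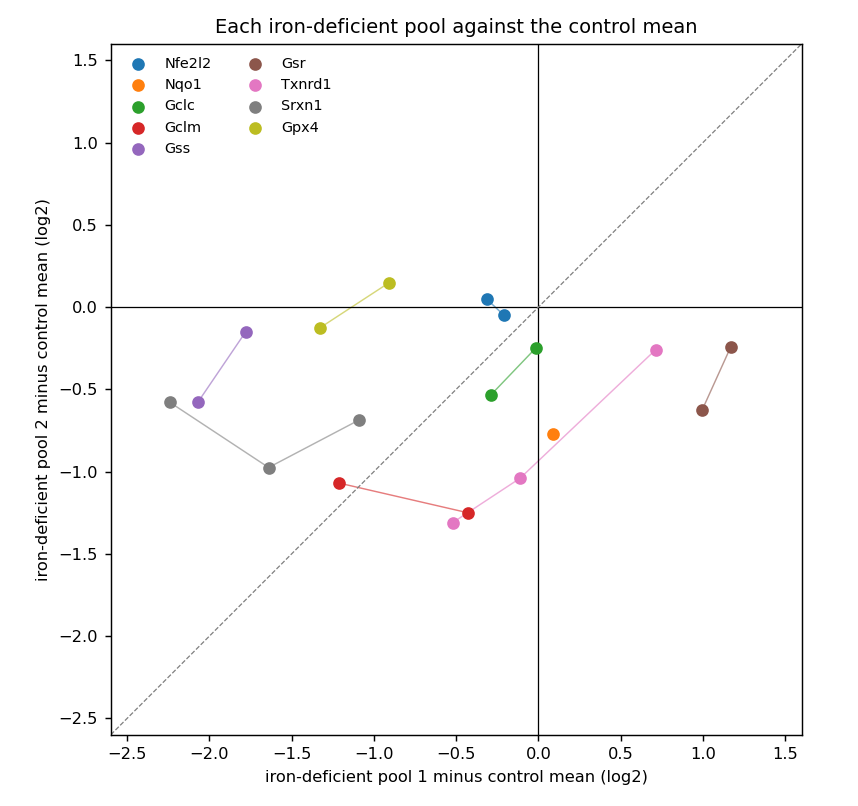
Log2 difference of each iron-deficient pool from the mean of the control pools, pool 1 on the horizontal and pool 2 on the vertical axis, for the 19 tested probe sets, with lines joining probe sets of 1 gene. Gclm and Srxn1 lie low on both axes, Gpx4 and Gss mainly on that of pool 1, and Gsr lies high on that of pool 1 and slightly low on that of pool 2.

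Set against the control pools one at a time, iron-deficient pool 2 was more even than pool 1. It lay below both control pools for 16 of the 19 probe sets, against 40.5% of all tested, and above both for 1, against 31.3%. Iron-deficient pool 1 lay below both for 13, against 52.6%, and above both for 4, against 34.9%. The 4 were both probe sets of Gsr, the brightest of Txnrd1 and that of Nqo1, and the 1 in pool 2 was the brighter probe set of Nfe2l2. The median of the 9 genes was -0.31 in pool 1 and -0.53 in pool 2, relative to the control mean. A gap between the iron-deficient pools of more than 1 log2 unit was found for Gss, Gsr and Gpx4 on their brightest probe sets, at 1.49, -1.41 and 1.06 as pool 2 minus pool 1, and across all probe sets the standard deviation of that gap was 0.964, against 0.504 between the control pools.

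Other genes of the same pathways were taken from lists of known members, 1 probe set per gene, and 0 of them passed at an adjusted p of 0.05 by limma. From each list the 4 genes with the smallest p are given, with the difference and its SE and then the difference of each iron-deficient pool from the control mean. Over all genes, pools were separated upwards for 13.1% and downwards for 26.0%. Among 9 regulators of Nrf2 they were separated upwards for 2 and downwards for 2, and the median was 0.13 (0.30 without iron-deficient pool 1 and -0.11 when pool 2 was omitted). Bach1, a haem-sensing repressor that competes with Nrf2 for its elements, had signals of 2736.4 and 1642.9 in the iron-deficient pools, against 1303.9 and 1331.9 in the control pools (0.69 ± 0.38; 1.05 in pool 1 and 0.32 in pool 2). A dimmer Bach1 probe set differed by 0.04. Maff, a small Maf partner of Nrf2, differed by 0.77 ± 0.43 (0.28 in pool 1 and 1.26 in pool 2). Cul3, the ubiquitin ligase scaffold that works with Keap1, differed by -0.35 ± 0.32 (-0.46 in pool 1 and -0.24 in pool 2), while its other 4 probe sets lay between 0.11 and 0.36. Nfe2l1, a factor related to Nrf2, differed by 0.47 ± 0.45 (1.00 in pool 1 and -0.07 in pool 2). Keap1 had signals of 534.9 and 959.5 in the iron-deficient pools, against 771.1 and 768.3 in the control pools, with a difference of -0.10 ± 0.40 that was 0.093 with median centring, and its other probe set differed by -0.41.

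Among 17 other Nrf2 targets, 2 were separated upwards and 6 downwards, against the same 13.1% and 26.0%. Their median of -0.03 was 0.16 with median centring, 0.08 without iron-deficient pool 1 and -0.58 without pool 2. Nqo2, a quinone reductase related to Nqo1, had signals of 153.6 and 312.2 in the iron-deficient pools, against 434.1 and 502.4 in the control pools (-1.09 ± 0.44; -1.60 in pool 1 and -0.58 in pool 2). Its other probe sets differed by -0.49 and -0.59, and the pools overlapped on the second of these. Cbr3, a carbonyl reductase, read 56.1 and 142.7 in the iron-deficient pools, against 186 and 202.9 in the control pools (-1.12 ± 0.51; -1.79 in pool 1 and -0.45 in pool 2). Slc48a1, a haem transporter, differed by -0.79 ± 0.41 (-1.25 in pool 1 and -0.34 in pool 2), and Me1, the cytosolic malic enzyme that supplies NADPH, by -0.60 ± 0.32 (-0.70 in pool 1 and -0.49 in pool 2). Hmox1, haem oxygenase 1, which frees iron from haem, had signals of 553.5 and 419.5 in the iron-deficient pools, against 373.1 and 486.8 in the control pools (0.18 ± 0.35; 0.38 in pool 1 and -0.02 in pool 2).

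Glutathione transferases couple glutathione to other molecules. Of 19, pools were separated downwards for 8 and upwards for 0, against 26.0% and 13.1% over all genes. The median was -0.28, and -0.05 when iron-deficient pool 1 was omitted. Gsta2 had signals of 62.5 and 179 in the iron-deficient pools, against 1157.4 and 1303.7 in the control pools, a difference of -3.54 ± 0.55 (limma unadjusted p = 0.000982, adjusted p = 0.581). It was -4.30 in pool 1 and -2.78 in pool 2, and near-identical copies of this gene make its identity uncertain. Gstt2 read 101.7 and 291.3 in the iron-deficient pools, against 442.9 and 474 in the control pools (-1.41 ± 0.55; -2.17 in pool 1 and -0.65 in pool 2). Gsta3 differed by -0.72 ± 0.33 (-0.87 in pool 1 and -0.57 in pool 2), and the microsomal Mgst2, whose pools overlapped, by 0.86 ± 0.52.

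Of 17 genes of glutathione turnover, 5 were separated downwards and 2 upwards, shares close to the 26.0% and 13.1% of all genes. Their median was -0.43, with -0.01 without iron-deficient pool 1 and -0.81 without pool 2. Anpep, a brush border peptidase, differed by -1.59 ± 0.65 (-2.54 in pool 1 and -0.64 in pool 2). Chac1, which degrades glutathione, read 36.8 and 59 in the iron-deficient pools, against 28.3 and 23.7 in the control pools (0.85 ± 0.38; 0.51 in pool 1 and 1.19 in pool 2). Ggct, another gene of this list, differed by -0.64 ± 0.39 (-1.05 in pool 1 and -0.24 in pool 2). Dpep1, a dipeptidase, differed by -0.90 ± 0.59 (-1.71 in pool 1 and -0.10 in pool 2), with overlapping pools. Its other probe set differed by -1.55, with pools separated downwards.

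Of 11 thioredoxin and peroxiredoxin genes, 2 were separated upwards and 0 downwards (median -0.02, or 0.18 with median centring). Sesn2, a stress-induced sestrin, differed by -0.78 ± 0.51 (-1.44 in pool 1 and -0.11 in pool 2), with overlapping pools. Its other probe set differed by -0.53, with pools separated downwards. Mitochondrial thioredoxin, Txn2, differed by -0.77 ± 0.54 (-1.48 in pool 1 and -0.06 in pool 2). Txn1, the cytosolic thioredoxin, had signals of 5828 and 5666 in the iron-deficient pools, against 4134 and 4687 in the control pools, a difference of 0.38 ± 0.31 that was -0.089 with quantile normalization. Txnip, which binds thioredoxin and inhibits it, differed by 0.43 ± 0.41 (0.88 in pool 1 and -0.03 in pool 2). Of 9 other peroxidases and superoxide dismutases, 2 were separated upwards and 4 downwards (median -0.39, or -0.25 without iron-deficient pool 1). Sod3, the extracellular superoxide dismutase, read 6.8 and 31.5 in the iron-deficient pools, against 80.5 and 81.5 in the control pools. It differed by -2.47 ± 0.74 (-3.57 in pool 1 and -1.36 in pool 2). The signal in iron-deficient pool 1 was under that array's background of 14.4, so the size of the difference is uncertain. Its other probe set differed by -1.38. Ccs, the copper chaperone of Sod1, differed by -0.71 ± 0.40 (-1.13 in pool 1 and -0.28 in pool 2). Sod1, the cytosolic one, differed by 0.74 ± 0.44 (1.19 in pool 1 and 0.29 in pool 2), and its other probe sets disagreed, between -0.27 and 1.22. Gpx6, a glutathione peroxidase, differed by -0.45 ± 0.31, and Gpx1, the abundant cytosolic one, by -0.17 ± 0.39, or 0.024 with median centring. Both lists are small, and their counts stand beside 13.1% upwards and 26.0% downwards over all genes.

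On the side of ferroptosis, 14 further defence genes had a median of -0.01 (0.19 with median centring), with 2 separated upwards and 1 downwards, against 13.1% and 26.0% of all genes. Gch1, which starts the synthesis of the lipid antioxidant tetrahydrobiopterin, had signals of 48.4 and 63.5 in the iron-deficient pools, against 23.9 and 30.9 in the control pools (1.03 ± 0.35; limma unadjusted p = 0.0284, adjusted p = 0.852). Its other probe set differed by 1.44, and both kept the pools apart. On the brightest probe sets, pools overlapped for Cisd1, a mitochondrial iron-sulphur protein (-0.44 ± 0.40), and for Pdss2, of coenzyme Q synthesis (0.48 ± 0.44). They also overlapped for the acyl-CoA synthetase Acsl3 (-0.31 ± 0.34). A dimmer probe set of Cisd1 (-0.82) and a dimmer one of Acsl3 (-0.37) had pools separated downwards. Their remaining probe sets, at -0.71 and -0.18, overlapped. Of 11 genes that promote ferroptosis, 2 were separated upwards and 3 downwards, shares close to those of all genes (median 0.02, or -0.11 with quantile normalization). Alox12, a lipoxygenase that oxidises polyunsaturated lipids, differed by -1.35 ± 0.60 (-2.21 in pool 1 and -0.49 in pool 2). Tfrc, the transferrin receptor through which cells take up iron, read 2743 and 2639 in the iron-deficient pools, against 1781 and 1992 in the control pools (0.51 ± 0.31). Its pools were separated on all 3 of its tested probe sets, the others differing by 1.33 and 0.55. Sat1, of polyamine breakdown, differed by -0.54 ± 0.34 (-0.33 in pool 1 and -0.75 in pool 2), and Lpcat3, which places polyunsaturated chains in phospholipids, by -0.72 ± 0.45 (-1.22 in pool 1 and -0.21 in pool 2).

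Gpx4 and Txnrd1 depend on selenoprotein synthesis. Of 10 genes of that pathway, 1 was separated upwards and 2 downwards, against 13.1% and 26.0% of all genes (median -0.02, with 0.18 with median centring and -0.26 without iron-deficient pool 2). Scly, the selenocysteine lyase, read 23.9 and 51.9 in the iron-deficient pools, against 88.6 and 101.9 in the control pools (-1.43 ± 0.46; -1.99 in pool 1 and -0.87 in pool 2). Lrp8, a receptor for the selenium carrier selenoprotein P, differed by 0.99 ± 0.33, and by 0.37 on its other probe set. Sepsecs, which completes selenocysteine on its tRNA, differed by -0.66 ± 0.33 (-0.46 in pool 1 and -0.87 in pool 2). The selenophosphate synthetase Sephs2 differed by 0.54 ± 0.42 (0.95 in pool 1 and 0.13 in pool 2). Its other probe sets differed by 0.31 and 0.03. Of Atf4 and 8 of its targets, a pathway that also drives Slc7a11, 4 were separated upwards and 0 downwards, against the same shares. Their median of 0.22 was 0.59 without iron-deficient pool 1 and 0.41 with median centring. Ddit4, an inhibitor of mTORC1 signalling, differed by 1.17 ± 0.37 (1.47 in pool 1 and 0.87 in pool 2). Trib3, a pseudokinase of that pathway, read 43.8 and 128 in the iron-deficient pools, against 20.2 and 24.3 in the control pools (1.76 ± 0.57; 0.98 in pool 1 and 2.53 in pool 2). Chac1 and Sesn2, described above, complete the 4 of this list with the smallest p. The first was higher and the second lower, with overlapping pools on its brightest probe set.

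**Figure D4:**
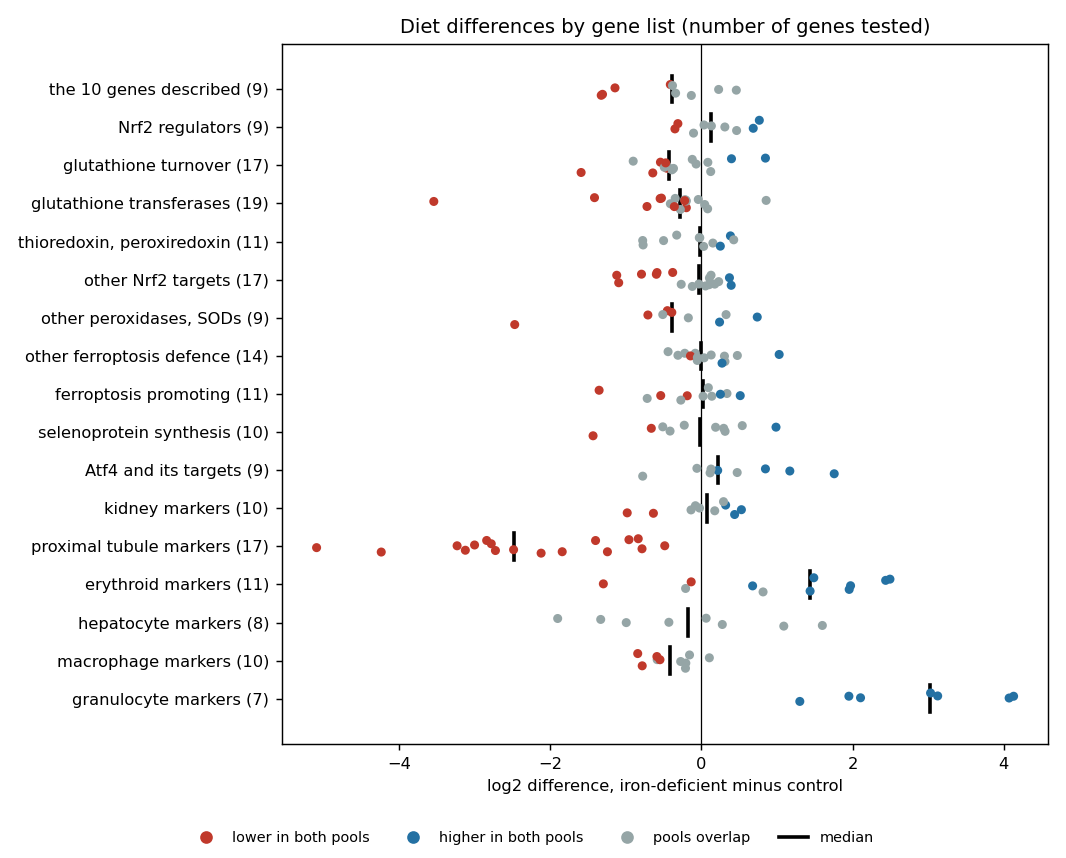
Diet difference on the log2 scale (iron-deficient minus control) of each tested gene on its brightest probe set, by list (number tested in brackets), with the list's median as a black bar; red genes had both iron-deficient pools below both control pools and blue genes both above. The 9 tested genes of the set centre on -0.38, against -2.48 for proximal tubule and 3.03 for granulocyte markers.

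Markers of other cell types differed beside these values, and their counts too stand beside 13.1% upwards and 26.0% downwards over all genes. All 17 tested proximal tubule markers, of 20 listed, had both iron-deficient pools below both control pools (median -2.48). Their summed signals were 1883 and 2815 in the iron-deficient pools, against 7501 and 7223 in the control pools. Granulocyte markers were higher in both iron-deficient pools for 7 of 7 tested, of 9 listed, with sums of 2524 and 1781 in the iron-deficient pools, against 447.2 and 467.3 in the control pools. The dim filter used the mean over all 4 arrays, so a marker could enter through the diet where it was high. Miox read 7.2 and 12.4 in the iron-deficient pools, both under background, against 61.1 and 74.8 in the control pools. Camp read 14.8 and 4.5 in the control pools, the second under background, against 205.4 and 91.5 in the iron-deficient pools. Counts and medians of these lists carry that limit. Erythroid markers were higher for 7 of 11 tested, of 16 listed, and lower for 2. Their sums were 9746 and 6928 in the iron-deficient pools, against 3163 and 3504 in the control pools. Of 10 macrophage markers, 4 were lower and 0 higher (median -0.41, or -0.11 without iron-deficient pool 1), with sums of 1872 and 2635 in the iron-deficient pools, against 2547 and 2810 in the control pools. The 8 tested hepatocyte markers, of 13 listed, overlapped in every case on their brightest probe sets. Dimmer probe sets of Apoa1, at 1.63 and 1.90, were separated upwards, and another, at 1.56, overlapped. The median of the list was -0.18, with 0.013 with median centring, 0.99 without iron-deficient pool 1 and -1.12 without pool 2. Its sums were 336.4 and 3200 in the iron-deficient pools, against 1731 and 1573 in the control pools. Of the 10 tested kidney markers, of 12 listed, 3 were higher and 2 lower (median 0.08). Their sums were 8285 and 8705 in the iron-deficient pools, against 7731 and 8178 in the control pools. No marker tested was at 0 in any pool. The part of these cell types in the differences of Gclm, Srxn1, Gss and the glutathione transferases was not tested.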

How the data were processed

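Total RNA was biotin-labelled and hybridised to Affymetrix arrays, per the labels' protocols. The authors deposited an intensity for each probe set of each array, on a linear scale, with arrays scaled to a mean of 250 after 2% trimming at both ends, as read from the values. The submitters' processing notes name RMA, but no log was taken and the distributions of the arrays differ; the program that computed the signals and the genome build are not given here. Of 45101 probe sets, 64 controls did not enter the test, nor did the dimmest 40% of the rest, ranked on mean log2 signal (limit 17.3). Zeros were set to 0.1 before log2. Differences were fitted with limma 3.58.1 (R 4.3.3; lmFit, eBayes) with diet as the only term, 2 residual and 3.49 prior degrees of freedom, and Benjamini-Hochberg adjustment over 27022 probe sets. Background on each array is the highest of 27 unspiked controls (14.4 and 13.3 in iron-deficient, 8.5 and 8.2 in control pools), and a lower bound on a fold compares the brighter group with the higher of background and signal. Each gene is represented by its brightest tested probe set. All 10 members are named, and from each pathway list the 4 genes with the smallest p, plus Keap1, Hmox1, Gpx1 and Tfrc, while marker lists are given by counts and sums. Symbols come from the platform annotation, and RefSeq changed 0 of the members'. The procedure was tried on simulated data with equal spread on every array, which these pools do not have, and no result here rests on it. Members and lists were chosen with earlier results of these data known. Alternatives were another filter (none, or 60%), quantile normalization, median centring, an offset of 16, other eBayes and weight settings, a block for replicate number, omission of each pool in turn, a threshold of 0.10 and 1 probe set per gene. The number of arrays limits the precision.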

Additional observations from a re-analysis of the deposited data

How the results depend on the processing

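No member passed at an adjusted p of 0.05 by limma under any alternative run. Over all probe sets, where the count was 0, it was 479 with the replicate number as a block, 13 with 1 probe set per gene, and 0 to 75 with a pool left out (75 without control pool 1, 31 without control pool 2). The block and the omission of a pool each leave 1 residual degree of freedom. With the block every member probe set had the same SE of 0.470, so p there followed the size of the difference alone. The 479 are therefore not better supported than the count of 0. With a pool left out, the lone pool is assumed to vary as the other diet's pools do. Pools with the same number deviated together (correlation 0.36), but nothing in the labels pairs them. The block moved the count of member probe sets at an unadjusted p under 0.05 by limma to 5, against 3 without it. With quantile normalization, median centring or no filter the count was 2. With the 60% filter, an intensity trend in eBayes or array weights it was 4. That count was 5 with an offset of 16, 6 when iron-deficient pool 1 was omitted, 8 when pool 2 was (with 2 higher), and 0 when either control pool was. The members' median of -0.38 was -0.21 with quantile normalization, -0.19 with median centring and -0.53 to -0.30 with a pool left out. Of 126 repeats of the 9 genes' differences, 120 kept their direction, Gclm, Srxn1, Gss and Gclc in all of theirs. Much of this was fixed in advance. The filters, eBayes and weight settings, the block and 1 probe set per gene leave the difference itself unchanged. Pools of Gclm, Srxn1, Gss and Gclc were separated, so leaving out a pool could not reverse them. The 6 reversals were Nfe2l2 with median centring (0.064) and 5 with a pool left out. With a pool left out the ranges were -0.91 to 0.15 for Gpx4, -0.24 to 1.17 for Gsr, -0.26 to 0.71 for Txnrd1, -0.31 to 0.047 for Nfe2l2 and -0.77 to 0.091 for Nqo1. The cause of the reversals was not tested. Over all probe sets, 309 were higher and 760 lower at an unadjusted p under 0.05 (28.9% higher), against 581 and 479 with median centring (54.8%), 460 and 612 with quantile normalization (42.9%), 942 and 1097 without a filter (46.2%), 187 and 522 with the stricter filter, 1228 and 1115 with the block (52.4%), and 109 to 3468 higher and 195 to 7077 lower with a pool left out. Signals near background, as for Slc7a11, limit what can be said of dim genes.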
